A study of Mus musculus with 8 samples.

Results

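The 2 differentiated mouse fat cell lines of the study were set against each other by messenger RNA: BAC, a brown fat line, and 3T3-L1, the standard white fat line. BAC cells had been derived from brown preadipocytes in the interscapular fat of newborn wild-type mice and immortalised by retroviral SV40 large T antigen with hygromycin selection. 3T3-L1 is an embryonic fibroblast line, obtained from a cell repository, that turns into white-type adipocytes. Both lines were confluent at day 0 and received the same induction mixture of IBMX, indomethacin, dexamethasone, insulin and T3, followed by insulin and T3 alone. The comparison took the libraries of BAC at day 4 (2 libraries) and of 3T3-L1 at day 6 (2 libraries), which is 4 of the 8 libraries of the series. The other 4 libraries, of BAC at day 0 (2) and 3T3-L1 at day 0 (2), give the difference between the lines before induction. The members are the 21828 gene symbols that occur once in each of the deposited count tables, of which 12013 had enough counts to be tested. Cell line, immortalisation, count table, day of harvest and counting differ together between the groups and cannot be told apart, so the account keeps to large differences in well-counted genes. Below, BAC and 3T3-L1 without a day stand for the differentiated cells, at day 4 and day 6. Each group is 1 cell line, and the labels do not say that its 2 libraries come from separate cultures, so the spread behind each p-value may be technical.

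Brown adipocytes burn fuel to make heat. Their mitochondria hold UCP1, which lets protons back across the inner membrane without making ATP, and they carry many respiratory chains, oxidise fatty acids and respond to noradrenaline through beta-adrenergic receptors and cyclic AMP. White adipocytes store triglyceride in a single large droplet and secrete hormones such as leptin, adiponectin and resistin. Both arise from mesenchymal precursors through PPARγ and the C/EBP factors, and the choice of the brown fate is tied to EBF2 and PRDM16. The study asked how cysteine metabolism bears on brown adipocyte differentiation, and the cysteine genes it examined are given below beside the fat genes.

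The libraries held 9045849 to 9238243 counts in BAC day 4 cells and 9507279 to 9558293 counts in 3T3-L1 day 6 cells. Transcripts of the mitochondrial genome took 8.68 and 10.1% of counts in BAC day 4 libraries, against 4.83 and 4.88% in 3T3-L1 day 6 libraries, and cytosolic ribosomal protein genes took 4.35 and 4.09% in BAC, against 1.35 and 1.33% in 3T3-L1. The 2 BAC day 4 libraries were less alike than the 2 3T3-L1 day 6 libraries, with a median difference of 0.11 between the BAC libraries, against 0.076 between the 3T3-L1 libraries, on the log2 scale over 9632 genes. Markers of other cell types summed to low levels in both lines. The 7 skeletal muscle markers summed to 3.37 and 2.97 CPM (counts scaled to the size of the library) in BAC day 4 libraries, against 1.5 and 1.08 CPM in 3T3-L1 day 6 libraries. For the 7 immune markers the sums were 6.95 and 5.6 CPM in BAC, against 2.68 and 3.13 CPM in 3T3-L1, and the 5 endothelial markers summed to at most 1.18 CPM in any of the 4 libraries. The 6 Schwann and neuronal markers summed to 12.4 and 10.0 CPM in BAC, against 22.3 and 25.8 CPM in 3T3-L1, the 5 epithelial markers to 0.326 and 0.22 CPM in BAC, against 1.72 and 2.7 CPM in 3T3-L1, and the 7 bone and cartilage markers to 4.35 and 4.06 CPM in BAC, against 19 and 18.8 CPM in 3T3-L1. Among them Snap25, a neuronal marker, had 0.217 and 0.33 CPM in BAC, against 15.3 and 17.7 CPM in 3T3-L1, a log2 difference of -5.85. The part of these markers in the results was not tested. In such bulk samples, fewer cells of a type and less RNA per cell cannot be told apart.

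Most genes differed between the differentiated lines. At an adjusted p under 0.05 by edgeR's quasi-likelihood test with Benjamini-Hochberg adjustment, 4794 of 12013 genes (39.9%) were higher in BAC day 4 cells and 4732 (39.4%) were lower, with a median log2 difference of 0.0094 over all genes tested. A difference was called large and well counted when it also reached 4-fold (2 on the log2 scale) at a mean level of at least 8 CPM (3 on the log2 scale). By that rule 584 genes (4.86%) were higher in BAC day 4 cells and 505 (4.2%) were lower. The counts in gene lists below are to be read beside these shares of all genes tested. The same rule applied to the undifferentiated cells gave 527 of 12355 genes (4.27%) higher in BAC day 0 cells and 239 (1.93%) lower. Of the 584 genes higher in the differentiated comparison, 203 were also in the large higher set at day 0, which is 34.8% of the first set and 38.5% of the second. Of the 505 genes lower in the differentiated comparison, 93 were also in the large lower set at day 0, 18.4% of the first and 38.9% of the second. A further 5 of those 505 were in the large higher set at day 0, and none of the 584 were in the large lower set. By the day 0 test alone, whatever the size, 22 of the 584 were lower at day 0 and 83 of the 505 were higher.

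**Figure D1:**
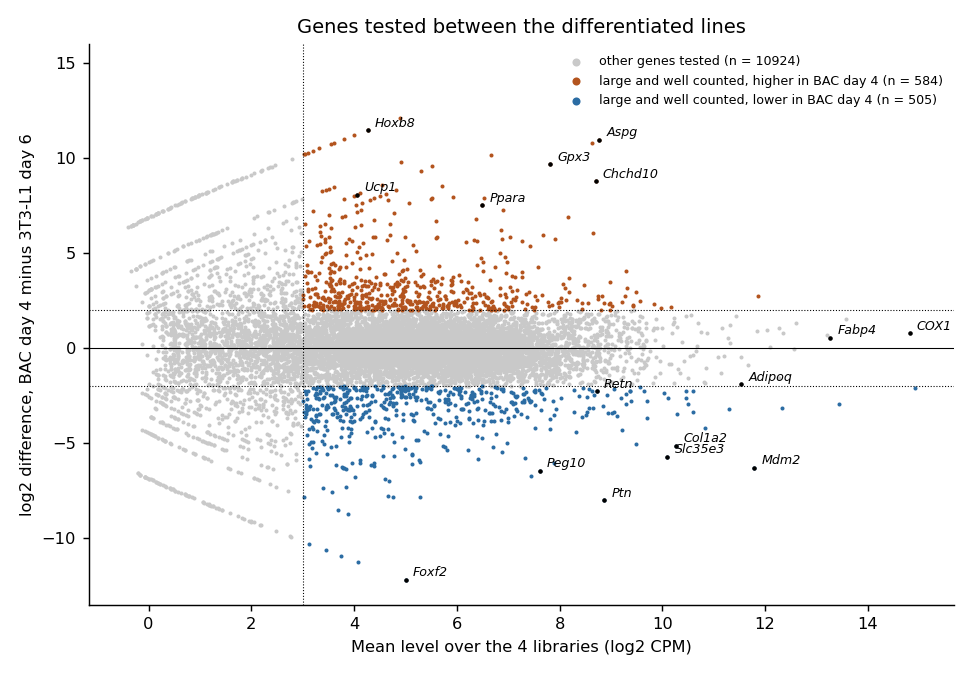
Each point is 1 of the 12013 genes tested, with its mean level over the 4 libraries on the x axis (log2 CPM) and the fitted log2 difference, BAC day 4 minus 3T3-L1 day 6, on the y axis. The 584 coloured genes above 2 and the 505 below -2 meet the rule for a large, well-counted difference, and fitted differences of genes with no count in a line lie on the outer diagonals and depend on the prior count.

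Thermogenic genes were higher in BAC. In a list of 34 brown fat and thermogenesis genes, 30 were tested, 25 were higher in BAC day 4 cells, 3 were lower and 2 did not pass, with a median log2 difference of 2.61. The share of all genes tested that was higher was 39.9%. The list summed to 3981 and 3847 CPM in BAC day 4 libraries, against 846 and 837 CPM in 3T3-L1 day 6 libraries. Before induction the median was -0.49 over the 20 members tested there. Ucp1, Elovl3 and Plin5 were not tested at day 0, so the 2 medians cover different genes.

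Ucp1, the uncoupling protein itself (chr8:83290348-83298456 of GRCm38.p6), had 46.4 and 19 CPM in the BAC libraries, against 0.215 and 0 CPM in the 3T3-L1 libraries. The counts were 427 and 173 in BAC, against 2 and 0 in 3T3-L1, and the BAC libraries differed from each other by more than for most genes. The ratio was 305, with an exact 95% interval of 84 to 2522 that covers counting error only, and the log2 difference was 8.08 (SE 0.75, adjusted p = 2.77e-07). No Ucp1 count was present in any of the 4 day 0 libraries. Cidea, a lipid droplet protein typical of brown fat, had 263 and 209 CPM in BAC cells, against 1.39 and 1.62 CPM in 3T3-L1 cells, a log2 difference of 7.28 (SE 0.18, adjusted p = 7.77e-13). Elovl3, a fatty acid elongase induced in active brown fat, had 47 and 35.4 CPM in BAC day 4 libraries, against 0.215 and 0.108 CPM in 3T3-L1 day 6 libraries, with a ratio of 256 (exact 95% interval 87.1 to 1242). All 3 genes were close to the detection limit in 3T3-L1 cells and well above it in both BAC libraries.

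Chchd10, a protein of the mitochondrial intermembrane space, had 861 and 803 CPM in BAC, against 1.82 and 1.94 CPM in 3T3-L1, which is 442-fold higher in BAC. Plin5, the perilipin that ties lipid droplets to mitochondria, had 105 and 77.8 CPM in the BAC libraries, against 0.322 and 0.431 CPM in the 3T3-L1 libraries. Ppara, the nuclear receptor that drives fatty acid oxidation genes, had 176 and 182 CPM in BAC cells, against 0.966 and 0.971 CPM in 3T3-L1 cells. These 3 genes reached abundant levels in one line and near absence in the other, with log2 differences of 8.78, 7.87 and 7.51.

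Zic1, a transcription factor that marks brown precursors, and Prdm16, a co-regulator of brown fate, were at or near 0 in 3T3-L1. Zic1 had 28 and 27.5 CPM in BAC day 4 libraries, against 0 and 0 CPM in 3T3-L1 day 6 libraries, at least 172-fold higher in BAC when the 3T3-L1 group is set to a floor of 3 counts. Prdm16 had 35.2 and 34.2 CPM in BAC, against 0.322 and 0.108 CPM in 3T3-L1, a log2 difference of 7.25 (SE 0.27, adjusted p = 2.55e-11). Ebf2 was expressed in both lines, at 134 and 134 CPM in the BAC libraries, against 22.2 and 21.4 CPM in the 3T3-L1 libraries, and its log2 difference was 2.62 between differentiated cells and 4.31 at day 0. Ppargc1a, the co-activator of mitochondrial biogenesis, did not pass the test, at 42.5 and 42.2 CPM in BAC cells, against 38.6 and 39.4 CPM in 3T3-L1 cells, with a log2 difference of 0.12 (SE 0.088, adjusted p = 0.229). At day 0 the same gene had 0.68 and 1.17 CPM in BAC day 0 cells, against 23.4 and 23.1 CPM in 3T3-L1 day 0 cells, a log2 difference of -4.63. Its relative Ppargc1b, in contrast, had a log2 difference of 1.81 in differentiated cells.

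Among the remaining brown genes, Pdk4, a kinase that blocks pyruvate entry into mitochondria, had 479.9 and 598 CPM in BAC day 4 libraries, against 41.7 and 40.5 CPM in 3T3-L1 day 6 libraries. Kcnk3, a potassium channel of brown fat, had 364 and 368 CPM in BAC, against 67.9 and 69.7 CPM in 3T3-L1, and at day 0 it was higher in 3T3-L1, with 0.486 and 0.293 CPM in BAC day 0 cells, against 4.87 and 4.56 CPM in 3T3-L1 day 0 cells. Dio2, which activates thyroid hormone, was too low to be tested, with 5 and 3 counts in BAC day 4 libraries against 1 and 0 counts in 3T3-L1 day 6 libraries. The exceptions in the list were Eya1, a co-activator named among brown fat genes, at 0.652 and 0.659 CPM in the BAC libraries, against 15.9 and 15.9 CPM in the 3T3-L1 libraries, and the smaller differences of Mtus1 (-1.09) and Nrg4 (-0.36), all 3 lower in BAC.

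**Figure D2:**
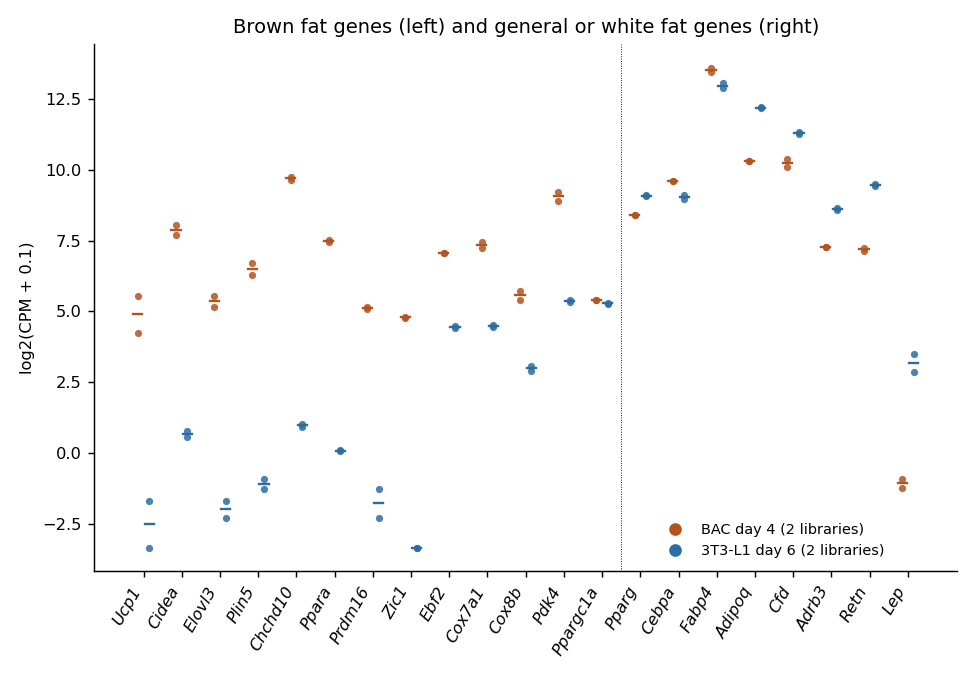
Levels of 13 brown fat genes (left of the dotted line) and 8 general or white fat genes (right) on a log2(CPM + 0.1) scale, with a point for each library (BAC day 4 orange, 3T3-L1 day 6 blue) and a bar at the mean of the log values. Ucp1 through Pdk4, Cebpa and Fabp4 were higher in both BAC libraries than in both 3T3-L1 libraries, and Ppargc1a did not pass the test. Pparg, Adipoq, Cfd, Adrb3, Retn and Lep were lower in both BAC libraries.

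Most genes of oxidative phosphorylation were higher in BAC than in 3T3-L1. Of 77 nuclear genes for subunits of the respiratory chain and the ATP synthase, 74 were higher in BAC day 4 cells, 2 were lower and 1 did not pass, with a median log2 difference of 1.33, and 12 of the 77 were large and higher. At day 0 the median was 0.29. Among all genes tested, 39.9% were higher and 4.86% were large and higher. Ndufs7, a core subunit of complex I, had 531 and 504 CPM in BAC cells, against 71.1 and 63.8 CPM in 3T3-L1 cells. Ndufa6, an accessory subunit of complex I, had 507 and 442 CPM in BAC day 4 libraries, against 84.5 and 79.6 CPM in 3T3-L1 day 6 libraries, a log2 difference of 2.53 (SE 0.085, adjusted p = 1.08e-11). Atp5d, a subunit of the ATP synthase stalk, had 1359 and 1215 CPM in BAC, against 236 and 219 CPM in 3T3-L1. The 2 lower members were Atp5g3 (-1.09), one of the genes for the ATP synthase c subunit, and Ndufa9 (-0.25), and Atp5j did not pass. The Ndufa9 call was lost when either 3T3-L1 day 6 library was left out.

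Cytochrome oxidase has subunit isoforms that are expressed in heart, muscle and brown fat in place of the general forms. All 5 tested isoform genes were higher in BAC. Cox7a1 had 173 and 149.9 CPM in the BAC libraries, against 22.9 and 21.8 CPM in the 3T3-L1 libraries, a log2 difference of 2.85 (SE 0.10, adjusted p = 1.17e-11). Cox8b had 52.9 and 42.4 CPM in BAC cells, against 8.26 and 7.44 CPM in 3T3-L1 cells, a log2 difference of 2.60 (SE 0.14, adjusted p = 1.48e-09). Both genes had a clear level in 3T3-L1 day 6 cells, unlike Ucp1. The general forms Cox8a and Cox6a1 were also higher in BAC, with log2 differences of 2.31 and 2.10.

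Of the 13 protein-coding genes of the mitochondrial genome, 11 were higher in BAC day 4 cells, 1 (COX3, -0.30) was lower and 1 (ND5, -0.03) did not pass, with a median of 1.04. COX1, the catalytic subunit of cytochrome oxidase, had 33076 and 39837 CPM in BAC day 4 libraries, against 20822 and 21530.1 CPM in 3T3-L1 day 6 libraries, and was the most abundant transcript in BAC. ATP8 is not stable, since its counts were 2 and 321 in BAC, against 3 and 24 in 3T3-L1, and its log2 difference of 3.59 became -2.66 without the second BAC day 4 library. Its call was also lost with DESeq2 (adjusted p = 0.18) and with edgeR without the low-count filter (adjusted p = 0.175). The COX3 call was lost without the first BAC day 4 library, without the first 3T3-L1 day 6 library and without the low-count filter.

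NRF1 is a transcription factor that binds promoters of many respiratory chain genes. The letters GCGCANGCG, most of its palindromic core, searched on both strands from 250 bases before to 50 bases after the RefSeq gene start, occurred in 34.4% of the 64 respiratory chain genes with such a window, against 15.7% of tested genes and 7.03% of all 27025 windows. They were also in 28.6% of the 21 windows of sterol genes, a list lower in BAC, and in 13.8% of the 455 windows of large higher genes and 8.01% of the 337 windows of large lower genes. The window of Ndufa6 (chr15:82354242-82354541, minus strand, GRCm38.p6) is shown, with the match in capitals. This complex I gene was large and higher and was picked among list members whose single window held a match.
Ndufa6: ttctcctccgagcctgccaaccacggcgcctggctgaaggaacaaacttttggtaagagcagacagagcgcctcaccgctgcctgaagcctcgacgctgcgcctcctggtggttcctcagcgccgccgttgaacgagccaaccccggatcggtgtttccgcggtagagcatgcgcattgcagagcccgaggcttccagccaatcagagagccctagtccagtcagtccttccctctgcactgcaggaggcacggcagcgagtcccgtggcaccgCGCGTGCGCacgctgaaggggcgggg
A match is a description of the letters and does not show binding.

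By number, most genes of the citrate cycle and of fatty acid oxidation were higher in BAC. In the citrate cycle and pyruvate entry list, 18 of 25 tested genes were higher in BAC, 5 were lower and 2 did not pass. The share of all genes tested was 39.9% higher and 39.4% lower. Cs, citrate synthase, had a log2 difference of 1.71. Pcx, which carboxylates pyruvate to oxaloacetate, was lower in BAC, with a log2 difference of -1.32. In the fatty acid oxidation list, 18 of 23 tested genes were higher, 4 were lower and 1 did not pass, with a median of 1.06. Its summed level was not higher in BAC, at 13936 and 12666 CPM, against 14788 and 14726.5 CPM in 3T3-L1. Acadl, a long-chain acyl-CoA dehydrogenase, had 1153 and 1119 CPM in BAC, against 239 and 236 CPM in 3T3-L1. The carnitine palmitoyltransferases at the gate of mitochondrial oxidation moved apart. Cpt1b, the muscle and brown fat form, had 5 and 1.98 CPM in the BAC libraries, against 0.429 and 0.216 CPM in the 3T3-L1 libraries. Cpt1a, the liver form, had 13.8 and 11.5 CPM in BAC cells, against 58 and 52.2 CPM in 3T3-L1 cells. Acsl1, the acyl-CoA synthetase that activates fatty acids, went against its list, at 1088 and 1042 CPM in BAC day 4 libraries, against 9294 and 9254 CPM in 3T3-L1 day 6 libraries.

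Peroxisomal genes gave a small median of 0.23, with 13 of 24 tested genes higher, 7 lower and 4 not past the test. Ehhadh, the peroxisomal bifunctional enzyme of beta-oxidation, had 56.2 and 57.7 CPM in BAC, against 7.08 and 5.18 CPM in 3T3-L1. Abcd2, a peroxisomal importer of very long-chain acyl-CoA, had 2.5 and 3.41 CPM in the BAC libraries, against 173 and 162 CPM in the 3T3-L1 libraries. Of 31 tested glycolysis genes, 12 were higher and 12 were lower, shares near those of all genes tested (39.9 and 39.4%). Slc2a1, the basal glucose transporter, had 55 and 45.4 CPM in BAC cells, against 259.9 and 265 CPM in 3T3-L1 cells, while the insulin-responsive transporter Slc2a4 had a log2 difference of 0.40.

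Lipid synthesis did not move as one block. Of 27 tested genes for fatty acid synthesis and elongation, 12 were higher in BAC, 14 were lower and 1 did not pass. Over all genes tested, 39.9% were higher and 39.4% were lower. Scd1, the main stearoyl-CoA desaturase of white fat, was the most abundant transcript of 3T3-L1 day 6 cells, with 12255 and 11379 CPM in BAC day 4 libraries, against 49094 and 50375 CPM in 3T3-L1 day 6 libraries. Mlxipl, which encodes the glucose-sensing factor ChREBP, had 233 and 227 CPM in BAC, against 3.22 and 3.02 CPM in 3T3-L1. Acacb, the acetyl-CoA carboxylase at the mitochondrial surface, had 514 and 461 CPM in the BAC libraries, against 46.7 and 47.8 CPM in the 3T3-L1 libraries. Srebf1, the regulator of fatty acid synthesis genes, was higher in BAC by 2.93 on the log2 scale, while Fasn had a log2 difference of -0.89.

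Sterol synthesis genes were lower in BAC throughout the pathway. Of 29 tested members, 27 were lower, 1 (Scap) was higher and 1 (Npc1l1) did not pass, and 12 were large and lower. The median was -1.71, against 0.72 at day 0. Over all genes tested, 39.4% were lower and 4.2% were large and lower. Msmo1, a sterol methyl oxidase, had 65.1 and 53.8 CPM in BAC cells, against 645 and 701 CPM in 3T3-L1 cells, a log2 difference of -3.50 (SE 0.094, adjusted p = 1.43e-12). Idi1, the isopentenyl diphosphate isomerase, had 18.4 and 16.4 CPM in BAC day 4 libraries, against 182 and 185 CPM in 3T3-L1 day 6 libraries. Both were below every 3T3-L1 library in both BAC libraries. At day 0 Idi1 was slightly higher in BAC, with 39.8 and 36.9 CPM in BAC day 0 cells, against 26.5 and 31.8 CPM in 3T3-L1 day 0 cells.

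SREBP2 binds sterol regulatory elements, next to which NF-Y sites with the letters CCAAT often lie. CCAAT occurred on either strand in 85.7% of the 21 sterol genes with a window, against 43.5% of tested genes and 41.1% of all windows. The letters TCACNCCAC, a common form of the sterol regulatory element, were in 4.76% of the sterol windows, which is Hmgcs1 alone, against 1.44% of all windows. The windows of Msmo1 (chr8:64733529-64733828, minus strand, capitals mark 3 CCAAT matches) and Hmgcs1 (chr13:119690101-119690400, plus strand, capitals mark the sterol element) are shown. Both genes were large and lower in BAC and were picked among list members whose single window held the letters.
Msmo1: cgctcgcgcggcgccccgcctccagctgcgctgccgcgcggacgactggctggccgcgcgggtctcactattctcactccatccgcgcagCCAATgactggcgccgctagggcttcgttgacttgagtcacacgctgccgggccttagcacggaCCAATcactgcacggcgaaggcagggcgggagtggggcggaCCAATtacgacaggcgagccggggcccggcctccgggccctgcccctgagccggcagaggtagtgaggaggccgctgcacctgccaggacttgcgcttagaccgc
Hmgcs1: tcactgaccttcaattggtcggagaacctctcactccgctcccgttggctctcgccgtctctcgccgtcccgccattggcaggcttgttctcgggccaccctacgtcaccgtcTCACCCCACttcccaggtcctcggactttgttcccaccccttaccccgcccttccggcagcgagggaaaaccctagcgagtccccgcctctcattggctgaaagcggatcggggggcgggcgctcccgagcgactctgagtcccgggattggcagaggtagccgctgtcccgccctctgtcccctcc
A match is again a description of letters.

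The general program of fat cells was present in both lines, at different balances. Of 31 tested general adipocyte genes, 12 were higher in BAC, 16 were lower and 3 did not pass, with a median of -0.40. Over all genes tested, 39.9% were higher and 39.4% were lower. Fabp4, the fatty acid binding protein of adipocytes, had 12274 and 11062 CPM in BAC, against 8532 and 7439 CPM in 3T3-L1. Pparg, the master regulator of fat cell formation, had 336 and 339.6 CPM in the BAC libraries, against 544 and 536 CPM in the 3T3-L1 libraries, a log2 difference of -0.68 (SE 0.065, adjusted p = 4.46e-07). Cebpa, its partner, had 775 and 784 CPM in BAC cells, against 546 and 505 CPM in 3T3-L1 cells, a log2 difference of 0.57 (SE 0.069, adjusted p = 4.3e-06). The differences of these 3 genes were under 2-fold, and all 3 adipocyte markers were well counted in all 4 libraries, as the labels of both lines imply.

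Several genes of triglyceride storage were lower in BAC. Lpl, which frees fatty acids from lipoproteins, had 2483 and 2644 CPM in BAC day 4 libraries, against 19729 and 19581 CPM in 3T3-L1 day 6 libraries. Cidec, which makes large droplets, had 506 and 458 CPM in BAC, against 2325 and 2339 CPM in 3T3-L1. Plin1, the perilipin of the storage droplet, had a log2 difference of -1.30. Pck1, the enzyme of glycerol synthesis from pyruvate, had 30.3 and 32.5 CPM in the BAC libraries, against 437 and 396 CPM in the 3T3-L1 libraries. Large and higher in BAC were Cebpb (2.21), an early factor of adipogenesis, Bscl2 (3.03), the seipin gene, and Acvr1c (6.70), an activin receptor.

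The secreted hormones of white fat were lower in BAC. Adipoq, adiponectin, had 1258 and 1253 CPM in BAC cells, against 4637 and 4689 CPM in 3T3-L1 cells, a log2 difference of -1.89 (SE 0.069, adjusted p = 2.55e-11). At day 0 the same gene had 26.5 and 21.8 CPM in BAC day 0 cells, against 1.62 and 0.542 CPM in 3T3-L1 day 0 cells, a difference in the opposite direction. Retn, resistin, had 141 and 149.9 CPM in BAC day 4 libraries, against 720.0 and 678 CPM in 3T3-L1 day 6 libraries. Cfd, the complement factor adipsin, had 1088 and 1319.9 CPM in BAC, against 2591 and 2418 CPM in 3T3-L1. Lep, leptin, had 0.326 and 0.439 CPM in the BAC libraries, against 11.3 and 7.23 CPM in the 3T3-L1 libraries, a log2 difference of -4.55 (SE 0.41, adjusted p = 1.92e-07) at a level too low for the rule on well-counted genes. Of 38 tested genes for secreted factors, 25 were lower, 10 were higher and 3 did not pass, and 13 were large and lower. Rbp4, the retinol carrier, was the main exception, with 126 and 82.7 CPM in BAC cells, against 0.215 and 0.324 CPM in 3T3-L1 cells. Igf1, insulin-like growth factor 1, had 5.54 and 5.38 CPM in BAC day 4 libraries, against 207 and 199 CPM in 3T3-L1 day 6 libraries, and its relative Igf2 had 0.543 and 0.11 CPM in BAC, against 29.6 and 23.5 CPM in 3T3-L1. Fgf21 and Gdf15, hormones of metabolic stress, had log2 differences of 3.40 and 2.77. Among all genes tested, 39.9% were higher and 39.4% were lower. A white and beige fat list had 7 of 18 tested genes higher and 10 lower. Within it P2rx5 and Slc36a2, surface proteins named as brown and beige markers, were large and higher in BAC (2.73 and 3.32).

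Beta-adrenergic receptor genes did not all move one way. Adrb3, the receptor of mature adipocytes, had 156 and 153 CPM in the BAC libraries, against 405 and 381 CPM in the 3T3-L1 libraries, a log2 difference of -1.35 (SE 0.070, adjusted p = 7.64e-10). Adrb1 had 14 and 13.3 CPM in BAC cells, against 2.25 and 1.73 CPM in 3T3-L1 cells. Adcy5, an adenylyl cyclase, was large and higher in BAC, with 26.1 and 28.8 CPM in BAC day 4 libraries, against 2.79 and 3.67 CPM in 3T3-L1 day 6 libraries. Npr1, the natriuretic peptide receptor, had 74.3 and 71.2 CPM in BAC, against 6.97 and 8.3 CPM in 3T3-L1. Adrb1, Adcy5 and Npr1 were higher in both BAC libraries, against Adrb3, which was lower in both. Adora1, an adenosine receptor that lowers cyclic AMP, had 162 and 167 CPM in the BAC libraries, against 2.57 and 3.99 CPM in the 3T3-L1 libraries. Hcar2, a lipolysis-lowering receptor, was lower in BAC, with 9.78 and 11.5 CPM in BAC cells, against 104 and 101 CPM in 3T3-L1 cells. The lipases themselves had log2 differences of 0.25 for Pnpla2, 0.12 for Lipe, which did not pass, and 1.03 for Mgll. Over the 27 tested genes of adrenergic signalling and lipolysis, 12 were higher, 11 were lower and 4 did not pass. These counts were near the shares of all genes tested (39.9% higher and 39.4% lower).

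The 6 tested cysteine genes named by the study had a median log2 difference of 1.07, against -1.10 at day 0, and 5 were higher in BAC. Over all genes tested, 39.9% were higher. The paper named these genes for their rise in BAC with differentiation, from its own RNA sequencing of the 2 lines. The list was thus picked by its change, and its turn from day 0 is not separate support. Cdo1, the dioxygenase that oxidises cysteine, had 399.6 and 439 CPM in BAC day 4 libraries, against 161 and 161 CPM in 3T3-L1 day 6 libraries, a log2 difference of 1.38 (SE 0.072, adjusted p = 8.9e-10). Ahcyl1, related to the S-adenosylhomocysteine hydrolase, had 821 and 876 CPM in BAC, against 183 and 185 CPM in 3T3-L1. Txn2, mitochondrial thioredoxin, had 309.5 and 270.0 CPM in the BAC libraries, against 113 and 117 CPM in the 3T3-L1 libraries. Got1, which also transaminates cysteine sulfinate, had 81.5 and 71.3 CPM in BAC cells, against 41.5 and 45.6 CPM in 3T3-L1 cells. Mat2b, the regulatory subunit of methionine adenosyltransferase, differed by 0.30, and its catalytic partner Mat2a did not pass, at 477 and 527 CPM in BAC day 4 libraries, against 539.7 and 514 CPM in 3T3-L1 day 6 libraries. Before induction Cdo1, Got1 and Mat2b were lower in BAC, with log2 differences of -1.61, -1.24 and -1.23.

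Cars2, the mitochondrial cysteinyl-tRNA synthetase that also makes cysteine persulfide, had 29.7 and 22.7 CPM in BAC, against 25.6 and 29.1 CPM in 3T3-L1. The log2 difference was -0.06 (SE 0.13, adjusted p = 0.67), and the 4 values overlapped between the lines. The sign turned with a single library or with scaling by library size alone, so no direction was found. At day 0 the levels were 22.6 and 22.6 CPM in BAC day 0 cells, against 31 and 30.2 CPM in 3T3-L1 day 0 cells, a log2 difference of -0.43 (adjusted p = 0.000713).

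The wider sulfur lists held large differences in single genes. Ahcy, which frees homocysteine, had 164 and 169 CPM in the BAC libraries, against 26.8 and 24.8 CPM in the 3T3-L1 libraries. Cbs, the first enzyme of transsulfuration, had 14.1 and 14.3 CPM in BAC cells, against 0.107 and 0 CPM in 3T3-L1 cells. Cth, the second, had 26.3 and 27.2 CPM in BAC day 4 libraries, against 17.6 and 22.5 CPM in 3T3-L1 day 6 libraries. Fmo1, a flavin monooxygenase that makes taurine from hypotaurine, had 185 and 162 CPM in BAC, against 7.3 and 7.98 CPM in 3T3-L1. Of the genes for cysteine oxidation, sulfide and persulfide, 15 of 21 tested were higher, 3 were lower and 3 did not pass. Ethe1, the persulfide dioxygenase, was higher by 1.54 on the log2 scale, and Sqrdl, the sulfide quinone oxidoreductase, had a difference of -1.37. Of 27 tested glutathione genes, 15 were lower, 10 were higher and 2 did not pass. Beside the counts of both lists, 39.9% of all genes tested were higher and 39.4% were lower. Gpx3, the secreted glutathione peroxidase, had 378 and 519 CPM in the BAC libraries, against 0.429 and 0.647 CPM in the 3T3-L1 libraries. Gstk1, the mitochondrial and peroxisomal transferase, had 0.543 and 0.769 CPM in BAC cells, against 18.2 and 20.7 CPM in 3T3-L1 cells.

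**Figure D3:**
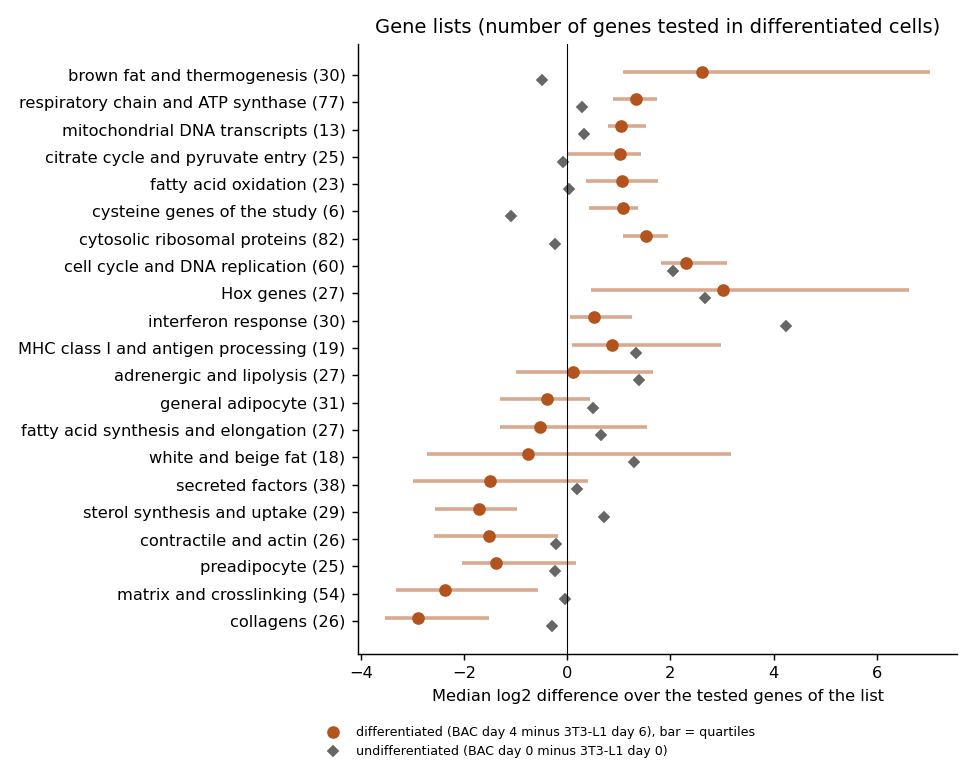
Median log2 difference over the tested genes of 21 lists, with quartile bars, for the differentiated comparison (BAC day 4 minus 3T3-L1 day 6, circles) and the median of the undifferentiated comparison (BAC day 0 minus 3T3-L1 day 0, diamonds). The brown fat list lay at 2.61 in differentiated cells (30 tested) and -0.49 at day 0 (20 tested), while the Hox and cell cycle lists were above 2 in both. Each median is over the genes tested in its own comparison.

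Genes of body position differed before and after induction. Hox genes keep a record of the level of the trunk from which a cell came. Of 27 tested Hox genes, 20 were higher in BAC, 5 were lower and 2 did not pass. Among all genes tested, 39.9% were higher. The Hox medians were 3.03 in differentiated cells and 2.67 at day 0. Hoxb8 had 41.5 and 35 CPM in BAC day 4 libraries, against 0 and 0 CPM in 3T3-L1 day 6 libraries, at least 237-fold higher in BAC. Hoxb7 and Hoxb9 gave lower bounds of 105-fold and 198-fold. The anterior members Hoxb2, Hoxb3 and Hoxb4 were expressed in both lines and were higher in BAC by 2.03, 2.59 and 3.08 on the log2 scale. Hoxa9 had 25.5 and 19.4 CPM in BAC, against 0 and 0.108 CPM in 3T3-L1. Hoxc6 had 22.4 and 23.4 CPM in the BAC libraries, against 0.322 and 0.216 CPM in the 3T3-L1 libraries. The Hoxd cluster ran the other way. Hoxd3 had 0.652 and 1.21 CPM in BAC cells, against 14.8 and 18.5 CPM in 3T3-L1 cells. Hoxd4 had 1.85 and 1.65 CPM in BAC day 4 libraries, against 24.4 and 26.4 CPM in 3T3-L1 day 6 libraries. The cluster held smaller differences for Hoxd8 (-1.64) and Hoxd9 (-1.80).

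**Figure D4:**
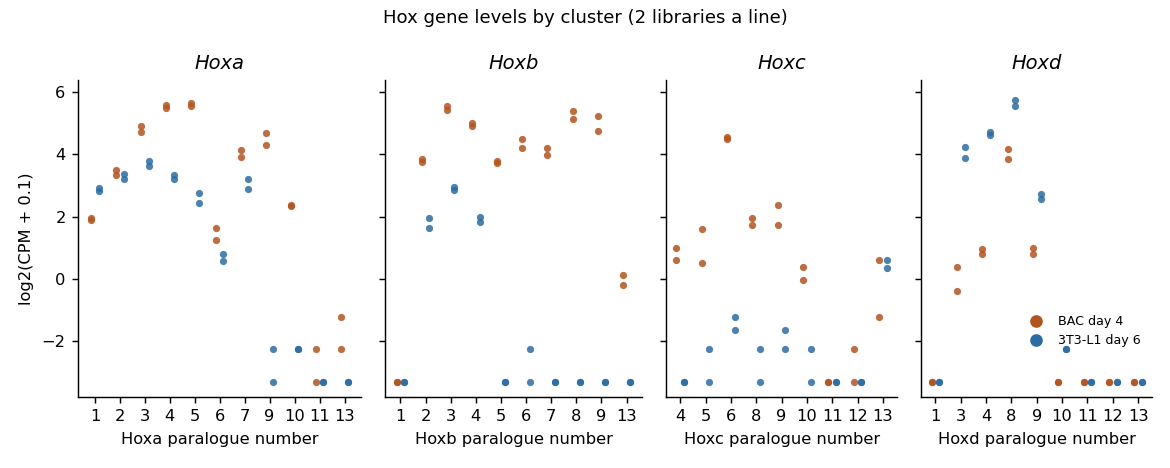
Levels of the Hox genes in the 4 clusters on a log2(CPM + 0.1) scale, ordered by paralogue number, with a point for each library (BAC day 4 orange, 3T3-L1 day 6 blue). Hoxb5 through Hoxb9 were at or near 0 counts in both 3T3-L1 libraries and expressed in both BAC libraries, and Hoxd3 and Hoxd4 were lower in BAC.

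Of 33 other regional transcription factors tested, 15 were higher in BAC, 15 were lower and 3 did not pass, near the shares of all genes tested (39.9% higher and 39.4% lower). Foxf2, a forkhead factor of gut, face and lung mesenchyme, had 0 and 0 CPM in BAC, against 66.3 and 60.9 CPM in 3T3-L1, at least 388-fold lower in BAC. Prrx1, a factor of limb and face mesenchyme, had 13 and 13.5 CPM in the BAC libraries, against 126 and 122 CPM in the 3T3-L1 libraries. Zic4, the neighbour of Zic1, had 7.93 and 8.02 CPM in BAC cells, against 0 and 0 CPM in 3T3-L1 cells. Lhx8, a brown fat marker, had 1.2 and 1.1 CPM in BAC day 4 libraries, against 0 and 0 CPM in 3T3-L1 day 6 libraries.

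Of 25 imprinted genes tested, 14 were lower, 7 were higher and 4 did not pass, beside 39.4% lower and 39.9% higher of all genes tested. Dlk1, the preadipocyte factor that slows fat cell formation, had 3.69 and 2.86 CPM in BAC, against 367 and 320.4 CPM in 3T3-L1. Peg10 had 4.24 and 4.5 CPM in the BAC libraries, against 379 and 395 CPM in the 3T3-L1 libraries, and at day 0 it was higher in BAC, with 359.9 and 345 CPM in BAC day 0 cells, against 75.6 and 82.6 CPM in 3T3-L1 day 0 cells. Mest, a gene of fat cell enlargement, had 4.45 and 3.95 CPM in BAC cells, against 96.6 and 97.6 CPM in 3T3-L1 cells. Grb10, an adaptor of the insulin receptor, was the large exception, with 44.1 and 53.1 CPM in BAC day 4 libraries, against 0.966 and 0.863 CPM in 3T3-L1 day 6 libraries. Meg3, the maternally expressed neighbour of Dlk1, had 4.45 and 5.38 CPM in BAC, against 0 and 0 CPM in 3T3-L1.

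Sex-linked transcripts were present in BAC. Xist, the RNA of the inactive X chromosome, had 662 and 919 CPM in the BAC libraries, against 0.215 and 0.647 CPM in the 3T3-L1 libraries. Eif2s3y, a gene of the Y chromosome, had 63.8 and 57.1 CPM in BAC cells, against 0 and 0.108 CPM in 3T3-L1 cells. Ddx3y, another Y gene, had 52.9 and 59 CPM in BAC day 4 libraries, against 0 and 0.324 CPM in 3T3-L1 day 6 libraries. Transcripts of the inactive X and of the Y chromosome were thus both present in BAC and at or near 0 in 3T3-L1, in every library. Whether the BAC line holds cells of more than 1 animal was not tested, since the labels do not say how many mice gave cells.

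Mdm2, the ubiquitin ligase that degrades p53 (chr10:117688875-117710758, GRCm38.p6), had 93.3 and 85.8 CPM in BAC, against 6889.6 and 7083 CPM in 3T3-L1, a log2 difference of -6.29 (SE 0.091, adjusted p = 1.89e-14), and -5.56 at day 0. Its neighbour Slc35e3 (chr10:117733678-117746358) had 43.2 and 37.7 CPM in the BAC libraries, against 2118 and 2180.5 CPM in the 3T3-L1 libraries, with log2 differences of -5.73 in differentiated cells and -5.72 at day 0. Cpm, the carboxypeptidase M gene on the other side of Mdm2 and overlapping no part of it, was low in all 4 libraries and had a log2 difference of -2.75. Without Mdm2 and Slc35e3, the other 12 tested genes within 2 Mb of Mdm2 ranged between -2.75 (Cpm) and 2.24 (Rab3ip), with a median of 0.41. The levels of both genes in 3T3-L1 exceeded those in BAC in every library. Of 27 tested genes of the p53 list, 10 were higher, 14 were lower and 3 did not pass, beside 39.9% higher and 39.4% lower of all genes tested. Cdkn1a, the p21 gene, was higher in BAC by 1.25 on the log2 scale, and Trp53 itself by 1.08.

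Medians also differed between chromosomes. Over the 643 tested genes of chromosome 8 the median log2 difference was -0.49 in differentiated cells and -0.51 at day 0. The X chromosome had -0.39 and -0.34, chromosome 10 had 0.48 and 0.50, and chromosome 15 had 0.39 and 0.29. The 16 other chromosomes lay between -0.26 and 0.23 in differentiated cells. DNA copy number was not measured, and its part in these differences was not tested.

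**Figure D5:**
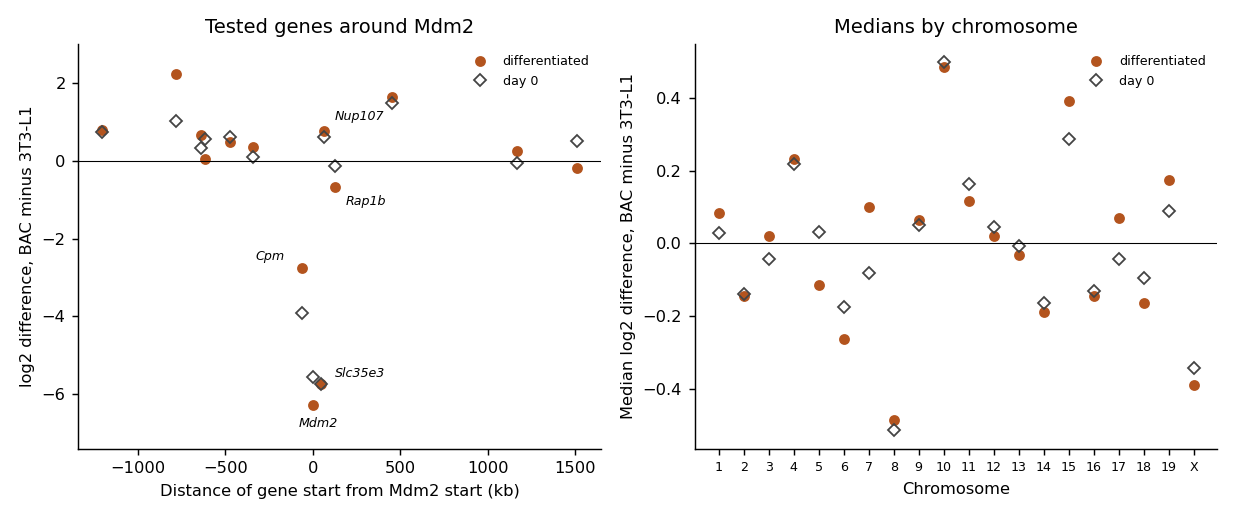
Left, log2 difference of the 14 tested genes around Mdm2 against the distance of their start from that of Mdm2 (kb), and right, the median log2 difference over the tested genes of each chromosome, for differentiated cells (BAC day 4 minus 3T3-L1 day 6, circles) and at day 0 (BAC day 0 minus 3T3-L1 day 0, diamonds). Mdm2 and Slc35e3 stood near -6 while most neighbours lay above -1, and chromosome 8 at -0.49 and chromosome 10 at 0.48 stood at the ends of the range in differentiated cells.

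Genes of cell division were higher in BAC. Of 60 cell cycle and replication genes, all tested, 53 were higher and 7 lower, and 39 were large and higher. The median was 2.30, and 2.05 at day 0. Over all genes tested, 39.9% were higher and 4.86% were large and higher. Mcm6, a subunit of the replicative helicase, had 374 and 354 CPM in BAC cells, against 20.1 and 18.2 CPM in 3T3-L1 cells, a log2 difference of 4.25 (SE 0.088, adjusted p = 2e-13). Cdt1, which loads that helicase, had 229 and 218 CPM in BAC day 4 libraries, against 6.01 and 7.66 CPM in 3T3-L1 day 6 libraries. Uhrf1, which guides DNA methylation after replication, had 366 and 302 CPM in BAC, against 7.19 and 8.84 CPM in 3T3-L1. E2f2, an activator of replication genes, had 43.2 and 38 CPM in the BAC libraries, against 0.644 and 0.755 CPM in the 3T3-L1 libraries. The D cyclins Ccnd1 and Ccnd2 went against the list. Ccnd1 had 1.96 and 3.3 CPM in BAC cells, against 34 and 30.8 CPM in 3T3-L1 cells. Ccnd2 had 142 and 138 CPM in BAC day 4 libraries, against 621 and 610.5 CPM in 3T3-L1 day 6 libraries. SV40 large T antigen, which binds RB and p53, was used to immortalise BAC and is not stated for 3T3-L1. The line and the oncogene cannot be told apart here.

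E2F factors bind the letters TTTNNCGC in promoters of replication genes. Counting both strands, these letters occurred in 33.3% of the 48 cell cycle genes with a window, in 10.0% of tested genes and in 5.93% of all windows. They were in 16.5% of the 455 windows of large higher genes and 5.93% of the 337 windows of large lower genes. CCAAT was in 70.8% of the cell cycle windows. The windows of Cdt1 (chr8:122567765-122568064, plus strand) and Mcm6 (chr1:128359656-128359955, minus strand, 3 matches of which the first and second overlap) are shown, with E2F letters in capitals. Both replication genes were large and higher in BAC and were picked among list members whose single window held a match.
Cdt1: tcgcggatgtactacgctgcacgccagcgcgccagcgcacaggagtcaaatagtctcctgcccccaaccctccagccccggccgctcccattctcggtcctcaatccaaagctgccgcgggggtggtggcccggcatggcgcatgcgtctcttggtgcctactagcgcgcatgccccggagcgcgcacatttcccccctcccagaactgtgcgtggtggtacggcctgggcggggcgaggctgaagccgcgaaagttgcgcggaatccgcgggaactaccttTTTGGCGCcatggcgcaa
Mcm6: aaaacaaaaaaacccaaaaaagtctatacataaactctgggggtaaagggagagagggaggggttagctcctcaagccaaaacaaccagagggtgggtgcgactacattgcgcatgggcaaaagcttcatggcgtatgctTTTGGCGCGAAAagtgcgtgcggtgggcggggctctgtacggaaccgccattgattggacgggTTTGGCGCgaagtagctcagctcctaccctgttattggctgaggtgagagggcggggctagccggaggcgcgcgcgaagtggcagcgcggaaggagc
The share among cell cycle genes is a property of the genes and was not tested against their differences.

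Genes of the extracellular matrix were lower in BAC. Among all genes tested, 39.4% were lower and 4.2% were large and lower. Of 26 tested collagen genes, 24 were lower, 1 (Col27a1) was higher and 1 (Col20a1) did not pass, with 14 large and lower. Their median was -2.89, against -0.30 over the 34 tested at day 0. Col1a2, a chain of fibrillar collagen, had 69.3 and 68.1 CPM in BAC, against 2491 and 2317 CPM in 3T3-L1. Col3a1, another fibrillar collagen, had 189 and 186 CPM in the BAC libraries, against 3547 and 3395 CPM in the 3T3-L1 libraries. Col4a1 of the basement membrane around fat cells had 499 and 492 CPM in BAC cells, against 4559.9 and 4467 CPM in 3T3-L1 cells. Of 54 tested genes of other matrix proteins and their crosslinking, 43 were lower, 6 were higher and 5 did not pass. Lum, the collagen-binding proteoglycan lumican, had 1.2 and 1.87 CPM in BAC day 4 libraries, against 64.2 and 58 CPM in 3T3-L1 day 6 libraries. Efemp1, a fibulin, was the only large member higher in BAC, with 20.6 and 21.9 CPM in BAC, against 0 and 0.431 CPM in 3T3-L1. Of 26 tested contractile and actin genes, 19 were lower, 4 were higher and 3 did not pass, with a median of -1.51. Acta2, smooth muscle actin, had 3.59 and 3.63 CPM in the BAC libraries, against 81.2 and 80.7 CPM in the 3T3-L1 libraries.

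Growth factor pathways leaned the same way. Of 50 tested Wnt, BMP and TGF-beta genes, 32 were lower, 12 were higher and 6 did not pass. The lower share of all genes tested was 39.4%. Inhbb, a subunit of activin and inhibin, had 0.543 and 0.22 CPM in BAC cells, against 52.1 and 48.6 CPM in 3T3-L1 cells. Fst, follistatin, which binds activin, had 1.09 and 0.989 CPM in BAC day 4 libraries, against 20.8 and 20.3 CPM in 3T3-L1 day 6 libraries. Tgfbr1, a TGF-beta receptor, had 17.7 and 17.4 CPM in BAC, against 182 and 191 CPM in 3T3-L1. Id2, an inhibitor of helix-loop-helix factors, was the only large member higher in BAC, with 90.4 and 98.2 CPM in the BAC libraries, against 1.72 and 1.62 CPM in the 3T3-L1 libraries. In the preadipocyte list, 16 of 25 tested genes were lower and 5 were higher. Mme was its only large member higher in BAC, with 53.9 and 48 CPM in the BAC libraries, against 2.15 and 2.05 CPM in the 3T3-L1 libraries. Thy1, a surface protein of mesenchymal cells, had 2.93 and 2.64 CPM in BAC cells, against 26.9 and 26.6 CPM in 3T3-L1 cells. Pdgfra, the precursor marker, had a log2 difference of -1.76.

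Interferon genes had a larger median difference at day 0 than in differentiated cells. In differentiated cells, 16 of 30 tested interferon response genes were higher in BAC, 3 were lower and 11 did not pass, with a median of 0.51. At day 0 the median was 4.23 over 40 tested genes, of which 32 were large and higher in BAC. The large and higher share of all genes tested at day 0 was 4.27%. Ifit3, an antiviral protein, had 0.543 and 0.989 CPM in BAC day 4 libraries, against 2.57 and 2.37 CPM in 3T3-L1 day 6 libraries, and at day 0 304 and 397 CPM in BAC day 0 cells, against 6.93 and 6.83 CPM in 3T3-L1 day 0 cells. Isg15, a ubiquitin-like protein, had 2.28 and 1.87 CPM in BAC, against 1.29 and 1.51 CPM in 3T3-L1, and at day 0 198 and 241 CPM in BAC day 0 cells, against 4.66 and 4.56 CPM in 3T3-L1 day 0 cells. In the list for MHC class I and antigen processing, 13 of 19 genes were higher, 3 were lower and 3 did not pass. Beside the counts of both lists in differentiated cells, 39.9% of all genes tested were higher and 39.4% were lower. Psmb9, a subunit of the immunoproteasome, had 20.0 and 16.1 CPM in the BAC libraries, against 0.215 and 0 CPM in the 3T3-L1 libraries. Tap1, a peptide transporter, had 39 and 41 CPM in BAC cells, against 7.4 and 4.21 CPM in 3T3-L1 cells.

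Stress and hormone targets differed in a few strong members. Mt1, a metallothionein that binds zinc, had 828 and 668 CPM in BAC day 4 libraries, against 114 and 105 CPM in 3T3-L1 day 6 libraries. Mt2, its paralogue, had 278 and 205 CPM in BAC, against 9.76 and 10.9 CPM in 3T3-L1. Fkbp5, a target of the glucocorticoid receptor, had 127 and 111 CPM in the BAC libraries, against 21 and 22.5 CPM in the 3T3-L1 libraries. Sgk1, another such target, had 4.02 and 4.39 CPM in BAC cells, against 23.7 and 24.3 CPM in 3T3-L1 cells. Among genes of the integrated stress response and serine synthesis, 17 of 30 were higher, 8 were lower and 5 did not pass, and Shmt1 and Shmt2, the serine hydroxymethyltransferases, were large and higher (2.93 and 2.83). Among 16 tested metallothionein and glucocorticoid target genes, 8 were higher, 5 were lower and 3 did not pass. Of 34 tested nuclear receptors, 19 were higher and 13 were lower. Beside the counts of these lists, 39.9% of all genes tested were higher and 39.4% were lower. Rora, a nuclear receptor tied to the circadian clock, had 16.7 and 14.2 CPM in BAC day 4 libraries, against 94.2 and 102 CPM in 3T3-L1 day 6 libraries.

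Cytosolic ribosomal protein genes were higher in BAC in 77 of 82 cases, with a median of 1.52, against -0.24 at day 0. Their summed share, given above, was 4.11 and 3.85% in BAC day 0 libraries, against 4.17 and 3.87% in 3T3-L1 day 0 libraries. Rpl29, Rpl21, Rpl34 and Rps2 had log2 differences of 6.91, 5.84, 5.76 and 6.08, and 5.48, 4.77, 4.90 and 4.87 at day 0. These genes have near-identical pseudogene copies, and the tables were not stated to be counted alike, so their values are uncertain. Replication-dependent histone genes, whose messages largely lack a poly(A) tail, were lower in BAC in 15 of 16 tested cases and are uncertain for the same reason. Hist1h2al had 0 and 0 CPM in BAC, against 35.8 and 30.5 CPM in 3T3-L1.

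Of the 15 largest differences in each direction, many lay outside the fat lists. Aspg, an asparaginase, had 836 and 911 CPM in the BAC libraries, against 0.322 and 0.539 CPM in the 3T3-L1 libraries, 2031-fold higher in BAC. Coro6, a coronin that binds actin, had 200.1 and 204 CPM in BAC cells, against 0.215 and 0.108 CPM in 3T3-L1 cells. Cyp27a1, the sterol 27-hydroxylase of mitochondria, had 71.4 and 85.4 CPM in BAC day 4 libraries, against 0.107 and 0.108 CPM in 3T3-L1 day 6 libraries. Cyp2d22, a cytochrome P450, had 87.8 and 94.7 CPM in BAC, against 0 and 0.216 CPM in 3T3-L1. Pbld1 had 58.1 and 59.9 CPM in the BAC libraries, against 0 and 0 CPM in the 3T3-L1 libraries, at least 366-fold higher. Hcn2, a pacemaker channel, had a ratio of 302 (exact 95% interval 103 to 1469), Ptprg, a receptor phosphatase, of 432 (119 to 3570.1) and Pde8a, a cyclic AMP phosphodiesterase, of 279 (95 to 1354). The other 7 of the 15 largest were Xist, Gpx3, Chchd10, Rbp4, Eif2s3y, Ddx3y and Elovl3, given above.

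On the lower side, Ptn, the growth factor pleiotrophin, had 3.8 and 3.41 CPM in BAC cells, against 979 and 887 CPM in 3T3-L1 cells, 259-fold lower in BAC. Sema3c, a secreted guidance protein, had 0.217 and 0.439 CPM in BAC day 4 libraries, against 76 and 77.2 CPM in 3T3-L1 day 6 libraries. Plcb2, a phospholipase C, had 0.109 and 0.33 CPM in BAC, against 55.1 and 50.9 CPM in 3T3-L1. Ranbp3l had 0.435 and 0 CPM in the BAC libraries, against 47.3 and 52.7 CPM in the 3T3-L1 libraries. Cdh13, T-cadherin, which binds adiponectin, had 0.217 and 0.11 CPM in BAC cells, against 26.5 and 29.3 CPM in 3T3-L1 cells. Mrgprf, an orphan receptor, had 0.109 and 0 CPM in BAC day 4 libraries, against 26 and 31.8 CPM in 3T3-L1 day 6 libraries. Mfap4, a microfibril protein, had 0 and 0 CPM in BAC, against 22.4 and 20.2 CPM in 3T3-L1. Itgbl1, an integrin-like protein, was at least 161-fold lower. Il2ra, a chain of the interleukin 2 receptor, had 0.109 and 0.11 CPM in the BAC libraries, against 24.9 and 21.5 CPM in the 3T3-L1 libraries. Dpysl3, Disp2 and Clec3b completed the 15 with Foxf2, Hist1h2al and Inhbb. Dpysl3 had 0.109 and 0.659 CPM in BAC cells, against 52.6 and 42.2 CPM in 3T3-L1 cells. Disp2 had 1 and 0 counts in BAC, against 229 and 240 counts in 3T3-L1. Clec3b, tetranectin, had 1 and 1 counts in BAC, against 188 and 189 counts in 3T3-L1. Over the shared symbols and all 8 libraries, day 0 included, 28 genes summed to at least 200 counts in the 4 BAC libraries with none in the 4 3T3-L1 libraries, and 3 genes (Hist1h2al, Ifi202b and Kcnn4) had the reverse.

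The remaining lists gave few large differences. Branched-chain amino acid breakdown had 25 tested genes, with 14 higher in BAC, 9 lower and 2 not past the test and a median of 0.26. Of 6 tested genes of creatine and calcium cycling, 2 were higher, 1 was lower and 3 did not pass. Of 13 tested genes of the methionine cycle and transsulfuration, 7 were higher, 2 were lower and 4 did not pass. Among all genes tested, 39.9% were higher and 39.4% were lower. The carboxylesterases, lipid hydrolases of liver and fat, had 4 of 5 tested genes lower and 1 not past the test. Ces1f had 7.5 and 6.48 CPM in BAC day 4 libraries, against 461 and 475 CPM in 3T3-L1 day 6 libraries.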

How the data were processed

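PolyA-selected messenger RNA of both lines was sequenced by the authors, who deposited 1 table of raw counts per gene for BAC and 1 for 3T3-L1. The paper's methods name STAR and HTSeq, while the notes of the submitters give mm10 with the tools DESeq2 1.4.5, RSEM 1.3.1 and Bowtie2, and which of these made which table is not given. There were 35976 symbols for BAC and 21828 for 3T3-L1. All 3T3-L1 symbols were in the BAC table, and the other 14148 BAC rows, 2.19% of the counts of each BAC day 4 library, were left out (27 of them had been turned into dates). Totals were 9045849 to 9238243 counts in BAC day 4 libraries and 9507279 to 9558293 in 3T3-L1 day 6 libraries.

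The 4 libraries were normalised together by TMM. Genes passing filterByExpr (minimum count 10) were tested with edgeR 4.0.16 (R 4.3.3, limma 3.58.1) by the quasi-likelihood F test, two-sided, with Benjamini-Hochberg adjustment at 0.05. SE is the absolute log2 difference over the square root of F. CPM values are TMM-normalised. The day 0 libraries were fitted apart by the same steps. List medians at day 0 are over the members tested there, which can differ from those tested in differentiated cells. A fold against a group with no count set the sum of that group to 3 counts, and ratios with 1 to 3 counts in a group carry an exact 95% interval. Intervals and floors cover counting error only. The steps were tested on simulated data, where 12% of genes changed 1.5-fold, 86% changed 2-fold and 100% changed 4-fold were called (11850 genes). Every simulated gene had the same spread, which was not fitted to these data. Named by rule were a set of fat genes, cysteine genes and Xist, the 15 largest differences in each direction among large, well-counted genes, and in each of 45 lists up to 4 large members and up to 2 that passed against the direction of the list. Other list members are examples chosen after their values were seen. Members and lists were chosen with earlier results of these data known. Positions and promoter windows are from RefSeq (GRCm38.p6, the assembly called mm10 in the notes), and 11662 of 12013 tested genes had a position. Alternatives were other scalings, no filter, DESeq2 1.42.0, all 8 libraries in 1 fit, a replicate block, stricter rules and leaving out each library. The alternatives for day 0 were chosen after seeing the data. Some genes that the rule names are not reported here.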

Additional observations from a re-analysis of the deposited data

Results flagged for a closer look

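Of 200 named genes, 24 passed the test in opposite directions in differentiated and in undifferentiated cells, with the groups not overlapping in either comparison. The difference between the 2 comparisons itself was not tested, and the day 4 and day 6 libraries differ in more than differentiation. Values are log2 differences, BAC minus 3T3-L1, with the differentiated cells before the day 0 cells.

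Higher in differentiated BAC and lower in BAC at day 0 were several genes of fuel and sulfur metabolism. Among these, Acacb differed by 3.37 and -0.36, Eno3, the muscle enolase, by 2.16 and -1.25, and Pdk4 by 3.71 and -0.59. The cysteine genes Cdo1 (1.38 and -1.61), Got1 (0.81 and -1.24) and Mat2b (0.30 and -1.23), named by the paper for their rise in BAC, shared the pattern. So did the metallothioneins Mt1 (2.77 and -0.47) and Mt2 (4.55 and -1.30), with Fkbp5 (2.44 and -0.35), Id2 (5.81 and -0.45) and Trp53inp1 (1.87 and -1.21). Col27a1 (1.42 and -2.09) and the histone gene Hist2h2be (1.33 and -0.70) completed this direction.

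Lower in differentiated BAC and higher in BAC at day 0 were 2 genes of the fat program, Adipoq (-1.89 and 4.46) and Pparg (-0.68 and 1.41). The sterol genes Sqle (-3.36 and 0.76), Idi1 (-3.40 and 0.40) and Hsd17b7 (-3.07 and 0.48) behaved alike. Inhbb (-6.99 and 1.58) and the imprinted gene Peg10 (-6.46 and 2.15) did so as well. Ifit3 (-1.68 and 5.67), Psmb10 (-0.78 and 0.78), Eno2 (-1.80 and 0.80) and Hist1h2bc (-2.26 and 0.55) made up the rest.

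Rows of the BAC table that the 3T3-L1 table does not hold took 2.19% of the counts of BAC day 4 libraries. They were outside every comparison because 3T3-L1 has no value for them, and 14141 of the 14148 were predicted genes or date-shaped names.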

How the results depend on the processing

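The counts of genes past the test and of large, well-counted genes stayed within 1.5 times their reported values under the other scalings, without the low-count filter, with DESeq2, with all 8 libraries in 1 fit and without each library. Genes higher in BAC day 4 cells numbered 4185 (DESeq2) to 5108 (library size alone), and genes lower 4210 (DESeq2) to 5202 (all 8 libraries). Without each library in turn there were 4363 to 4762 genes higher, 4240 to 4733 lower, 496 to 654 large and higher and 439 to 556 large and lower. The large lower count was 705 with all 8 libraries in 1 fit. Of the 584 and 505 large genes, between 83 and 100% were kept under each of these settings. A stricter rule gave fewer genes by construction: 255 higher and 250 lower at a mean log2 CPM of at least 5, and 256 higher and 247 lower at 8-fold or more. At day 0 the large counts were 440 to 587 higher and 222 to 259 lower without each library. The labels do not say whether same-numbered libraries of the lines were handled together. Their deviations had a correlation of 0.092 over 9632 genes, which with 2 libraries a line cannot show it either way. A replicate block gave 4812 genes higher, 4744 lower, 583 large and higher and 506 large and lower.

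Of 2378 refits of named genes, 2362 kept direction and side of the threshold, 8 lost the call, 2 gained it and 6 turned direction. ATP8 turned to -2.66 without BAC day 4 replicate 2 and reached 5.73 without 3T3-L1 day 6 replicate 2. Cars2 turned to 0.0068 by library size alone and, without each library in turn, ranged between -0.26 (without BAC day 4 replicate 1) and 0.13 (without BAC day 4 replicate 2), with 0.034 without 3T3-L1 day 6 replicate 2. Mat2a turned to 0.00057 by library size alone and, without each library in turn, ranged between -0.13 (without BAC day 4 replicate 2) and 0.0084 (without BAC day 4 replicate 1). Cars2 and Mat2a had not passed the test as reported. Mat2a gained a call without BAC day 4 replicate 2 and with all 8 libraries in 1 fit (-0.16). With 2 libraries a group, changes of 1.5-fold were mostly below detection in the simulated data. The simulation gave every gene the same fixed spread and changed 50 genes at each fold. In the real data smaller differences passed, such as Mat2b at 1.23-fold and Scap at 1.29-fold. The simulation therefore cannot give the detection limit of this comparison. No scaling changed the sign of a list's median.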
